A study of Pimephales promelas with 15 samples.

Results

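The 67 transcripts described here were lower than the solvent control in fathead minnow larvae of both HBCD groups. They were selected on the measured values themselves. Estimated counts were summed per identifier and divided by the library total to give counts per mega-count of the library (CPM). An identifier was eligible if it stood on 1 or 2 rows of the deposited table, had a mean of at least 1 and less than 1000 CPM over the 15 libraries, and had a pooled within-group SD of log2(CPM + 1) below 1. Of 14279 identifiers, 12400 were eligible. A member had a lower mean log2(CPM + 1) than the control at an unadjusted p under 0.05 (an unequal-variance test per target) in low HBCD and again in medium HBCD. Both tests used the same 5 control libraries. The differences from the control below are therefore a description of what was selected, with no further test.

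Each library came from a pool of 20 whole larvae of Pimephales promelas taken 7 days after fertilization and reared in clean water; the sample labels call them whole embryo bodies. HBCD reached them through the egg, from parents fed for 49 days, with eggs collected between days 25 and 42. In the low group the food held 11.5 mg HBCD per kg and the larvae 0.576 mg per kg. In the medium group these were 36.4 and 1.77 mg per kg, and the solvent controls came from parents on food from which the ethanol carrier had evaporated, with HBCD in the larvae below detection. There were 5 pools in each group. Whether these pools had different parents is not stated, and the variation that a p-value is set against may in part be technical.

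Hexabromocyclododecane, or HBCD, is a flame retardant carrying bromine that dissolves in fat and persists in animals. A female fish passes such compounds to its eggs with the yolk lipids, and the larva takes them up as it consumes the yolk. HBCD is studied in fish chiefly for effects on the thyroid hormone axis and on the liver enzymes that handle foreign compounds. The targets measured here carry UniProt or RefSeq protein identifiers. None of the 14279 identifiers, the 67 members included, was found among the 64593 genes of the reference table, and no deposited file gives their names. Members are therefore given by identifier, with no gene name or function, and neither pathway lists nor tissue markers could be counted, so the labelled tissue was not checked against markers. No sequence of a member was at hand to print.

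Library totals ran from 13.03 to 58.4 mega-counts in the controls, from 12.8 to 35.2 in low HBCD and from 12.6 to 26.4 in medium HBCD. The 2 deepest libraries were control replicates D and E, which were also the closest pair within a group. Their log2 values differed with an SD of 0.195 over eligible targets, but their counts differed by more than sampling noise (a mean chi-square of 16.4 per target), and they were kept as separate samples. The scale of the libraries matters for small differences. With CPM by library total, eligible targets had a median difference from the control of 0.049 in low HBCD and -0.017 in medium HBCD on the log2 scale. Of the targets past the selecting test, 28.4% were lower in low HBCD and 62.0% in medium HBCD. With TMM factors, which correct for library composition, these shares were 53.5% and 52.6%. All 67 members stayed lower than the control at both doses with TMM factors, although 62 and not 67 kept an unadjusted p under 0.05 in medium HBCD.

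The 67 members were 0.54% of the eligible targets. The 97 eligible targets higher at both doses made up 0.782%. With TMM factors 94 targets were lower and 71 higher at both doses, and with DESeq2 size factors 92 and 73. The larger count thus depended on the scaling. By library total the test selected 283 targets as lower in low HBCD, 2.28% of those eligible, and 557 in medium HBCD, or 4.49%. Each count includes the targets lower at both doses. With TMM factors these counts were 453 and 447. Whole larvae were measured, so fewer cells of a type and less RNA per cell cannot be told apart.

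In every one of the 10 HBCD libraries most members lay a modest step below the control mean. On the log2(CPM + 1) scale, the median deviation of the members from the control mean was between -0.396 in replicate A and -0.327 in replicate E of low HBCD. In medium HBCD the 5 medians were between -0.412 in replicate A and -0.303 in replicate E. The control libraries had medians between -0.058 (replicate A) and 0.024 (replicate B). The medians of the HBCD libraries and of the control libraries did not overlap, which the selection favours, and those of the low and medium libraries overlapped. In each medium HBCD library all 67 members were below their control mean, and in the low HBCD libraries 63 to 66 were. Control replicate A was the lowest control for 26 of the 67 members, more than any other control library. No such share over all eligible targets is given here, so this is not read as a trait of the members.

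**Figure D1:**
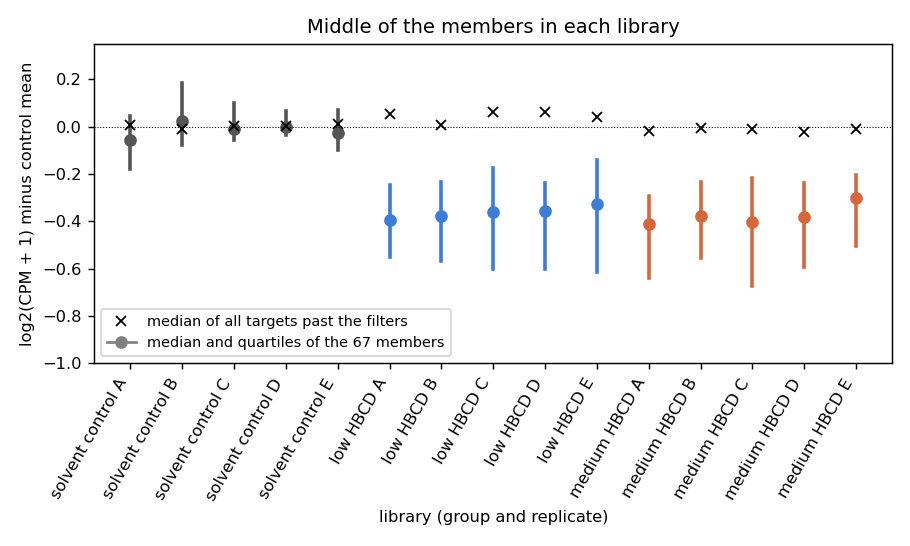
The vertical axis gives log2(CPM + 1) minus the mean of the 5 controls, and the horizontal axis the 15 libraries. Dots and bars are the median and quartiles of the 67 members, crosses the median of all 12400 eligible targets; the member medians of the HBCD libraries lie between -0.412 and -0.303, while the crosses stay between -0.021 and 0.064.

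Summed over the members, the level was 4910 ± 304 CPM in the controls, 3649 ± 493 CPM in low HBCD and 3713 ± 261 CPM in medium HBCD (SD, n = 5 each). One member, F1QL16, supplied the most counts, and low HBCD replicate E, at 4528 CPM in sum, stood above the other low libraries (3379 to 3487 CPM). In that library F1QL16 held 1546 CPM, against 404 to 625 CPM in the other 4.

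**Figure D2:**
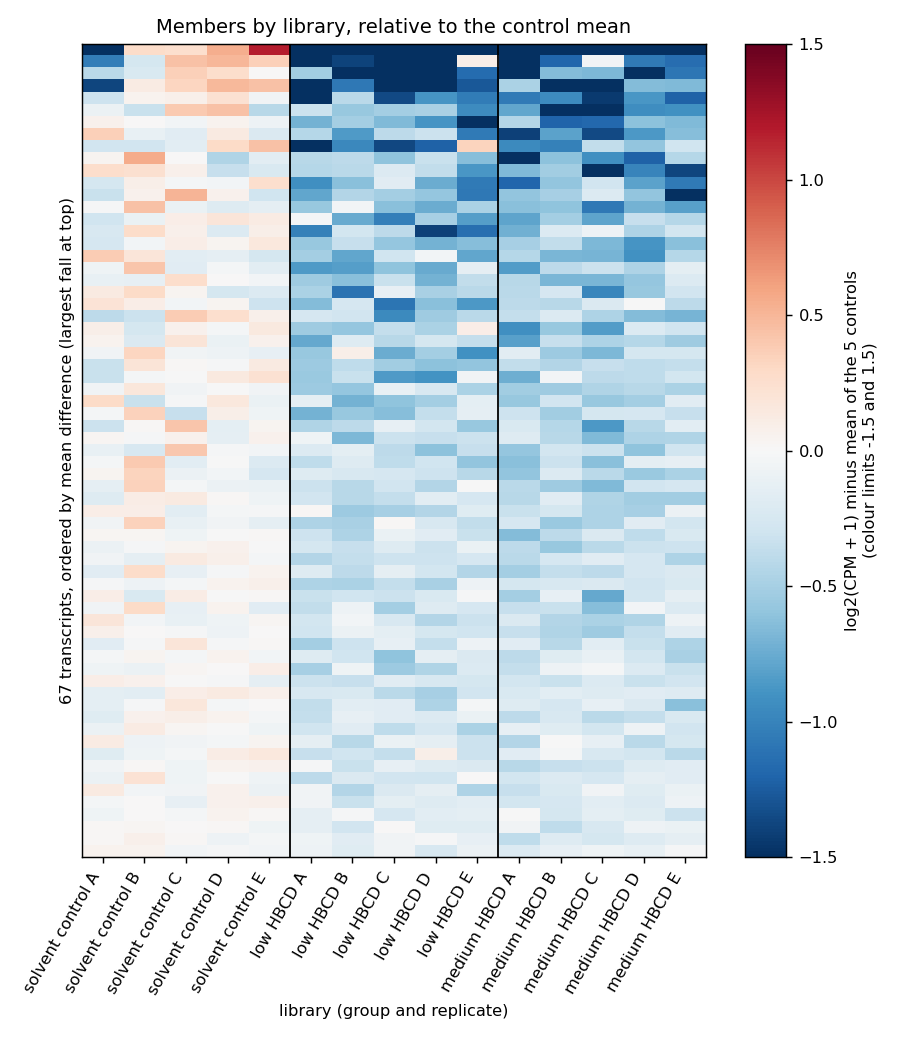
Each row is 1 of the 67 members, ordered by its mean difference over both doses, and each column 1 library. Colour gives log2(CPM + 1) minus the control mean, limited to -1.5 and 1.5 for display; most members are pale blue in both HBCD groups, and the members at the top are dark blue, with control replicate A also dark blue for several of these.

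Most members were lower by a small step. The difference from the control in low HBCD had a median of -0.36 on the log2(CPM + 1) scale and ran from -2.25 to -0.087. In medium HBCD the median was -0.38 and the range -2.25 to -0.10. The middle member held 76.6% of its control CPM in low HBCD and 74.2% in medium HBCD. In low HBCD 5 members were lower by more than 1 log2 unit, 16 by 0.5 to 1 and 46 by less than 0.5. In medium HBCD these numbers were 8, 12 and 47. Adding 1 to CPM makes these differences smaller than the log2 ratio of CPM, most so for members of low CPM. The value of -2.25 at both doses is that of E7EZ29, which was near 0 CPM in every HBCD library.

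Shallower members had larger differences. CPM is not divided by transcript length, so it is used here as the depth behind a target and not to rank transcripts by abundance. The 13 members under 5 CPM had median differences of -0.57 in low and -0.61 in medium HBCD, with a median within-group SD of 0.306. The 26 members from 5 to 20 CPM had -0.49 and -0.44, and the 18 from 20 to 100 CPM had -0.28 and -0.31. The 10 members of 100 CPM or more had -0.30 and -0.32, with an SD of 0.125. A noisier target needs a larger difference to pass the selecting test, so this gradient is partly set by the rule. Members were shallower than the eligible targets, with a median of 16.5 against 29.9 CPM. The class from 5 to 20 CPM held 38.8% of members and 26.0% of eligible targets, and the class from 20 to 100 CPM held 26.9% and 46.6%. Their median within-group SD was 0.181 against 0.212, and a lower SD is favoured by the selecting test.

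**Figure D3:**
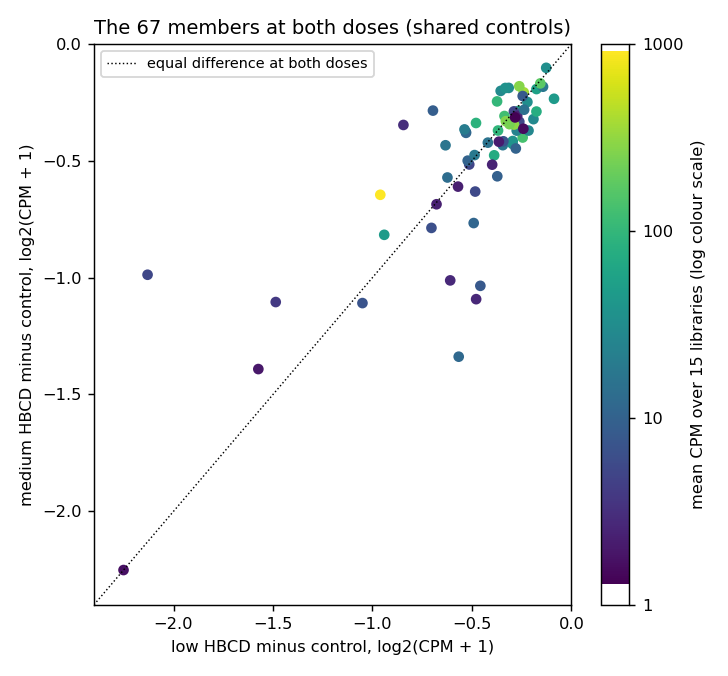
Each dot is a member, with its difference from the control in low HBCD on the horizontal axis and in medium HBCD on the vertical axis, both as log2(CPM + 1), and the colour giving mean CPM. The dots cluster between -0.5 and 0 on both axes near the line of equal difference, and the dots beyond -1 are of dark colours, that is of low CPM; both axes share the same controls and negative values are required by the selection.

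In how many members did the libraries themselves separate? All 5 low HBCD libraries lay below all 5 controls in 20 members (of all eligible targets, 0.54% showed this). In medium HBCD 34 members separated in this way, against 1.41% of eligible targets. Both doses separated in 15 members (0.121% of eligible targets), and neither in 28. Since the members were chosen by these same differences, the counts describe them and are not read against the background.

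XP_021326671.1 had the smallest p of the members in low HBCD. Its 5 controls held 2.57, 3.11, 3.53, 3.35 and 3.72 CPM in replicates A to E. In low HBCD it held 1.85, 2.34, 1.83, 1.59 and 1.73 CPM, and in medium HBCD 2.01, 2.28, 1.66, 1.29 and 1.74 CPM. Every HBCD library was below every control, and the doses overlapped. The mean was 57.3% of the control in low and 55.1% in medium HBCD, with edgeR log2 fold changes of -0.85 (SE 0.21) and -0.85 (SE 0.21) and edgeR adjusted p of 0.25 and 0.267.

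F1QQB8 had the smallest p in medium HBCD and more depth. Its controls held 9.04, 11.9, 12.1, 13.5 and 11.01 CPM in replicates A to E. The medium HBCD libraries held 4.94, 5.46, 3.58, 5.77 and 4.34 CPM, and the low HBCD libraries 3.20, 8.42, 3.87, 5.74 and 5.00 CPM. All 10 lay below the lowest control, with low HBCD replicate B nearest to it. F1QQB8 stood at 45.5% of the control in low and 41.8% in medium HBCD, with edgeR log2 fold changes of -1.18 (SE 0.24) and -1.25 (SE 0.24) and edgeR adjusted p of 0.101 and 0.0993.

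E7EZ29 had the largest difference at both doses and was read in the control group alone. Control replicates B to E held 4.77, 4.67, 5.93 and 9.78 CPM, while control replicate A was listed at 0. In none of the 10 HBCD libraries did its estimated count reach 1. Taking 3 counts over a whole group as the floor, its pooled level was at least 240-fold lower in low HBCD and at least 195-fold lower in medium HBCD than in the controls. These bounds cover counting error only, not the variation between pools or the assignment of reads to targets. Its count was listed at 0 in 9 libraries and was not whole in 6, so its reads may be shared with other targets. Of 989 counts summed over the controls, 571 came from 1 library. Its mean of 1.68 CPM over the 15 libraries, which met the filter, came from the controls. The edgeR filter removed E7EZ29, which leaves 66 members tested there, and because control replicate A is at 0 as well, the ranges of the groups meet.

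Another 3 members had a library with fewer than 3 counts and were singled out after their values were seen. B3DFT1 held 3.67 to 12.5 CPM in the controls and 2.40 to 8.25 CPM in medium HBCD. In low HBCD it was listed at 0 in replicates C and D but held 9.14 CPM in replicate E, so its groups overlapped. E7F1T3 held 2.67 to 5.199 CPM in the controls. It was at 0 in low replicates B and C and medium replicates A and D. The other HBCD libraries reached at most 2.39 CPM, below every control. The group means of E7F1T3 were 3.94 CPM in the controls, 0.823 CPM in low and 1.08 CPM in medium HBCD. Its mean of 1.95 CPM over the 15 libraries, which met the filter, thus rested largely on the controls. F1RB89 had a count under 1 in 1 medium HBCD library. Its pooled level was 3.49 CPM in the controls, 2.57 CPM in low and 1.53 CPM in medium HBCD. The counts are estimates that divide reads among similar sequences, so an exact 0 is given as listed.

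For the 3 members that stood on 2 rows, the values used are sums of both rows. How reads were divided between the 2 rows of an identifier affects the single rows and not their sum. How similar the rows are in sequence was not checked. F1QL16 held 1003, 1005, 1093, 1493 and 1659 CPM in control replicates A to E. In low HBCD it held 404, 625, 475 and 525 CPM in replicates A to D but 1546 CPM in replicate E. In medium HBCD it held 606 to 995 CPM, below every control, while low replicate E lay inside the control range. Both of its rows were lower, from 1018 ± 274 to 568 ± 374 and 650 ± 155 CPM for the larger and from 233 ± 39.6 to 147 ± 98.2 and 148 ± 23.7 CPM for the smaller (control, low, medium; SD, n = 5 each). Of XP_005165758.1, the larger row held 58.1 ± 5.01, 51.2 ± 5.65 and 45.6 ± 5.23 CPM in that order, and the smaller row 27.9 ± 4.57, 24.9 ± 2.02 and 24.7 ± 6.19 CPM. F1R7Q9 had rows of nearly equal level, 18.7 ± 1.87 and 18.2 ± 0.674 CPM in the controls, and both row means were lower at both doses. The row means of all 3 members thus pointed the same way, which selection on the sum of the rows favours. Several rows differed from the control by about the spread of the libraries.

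**Figure D4:**
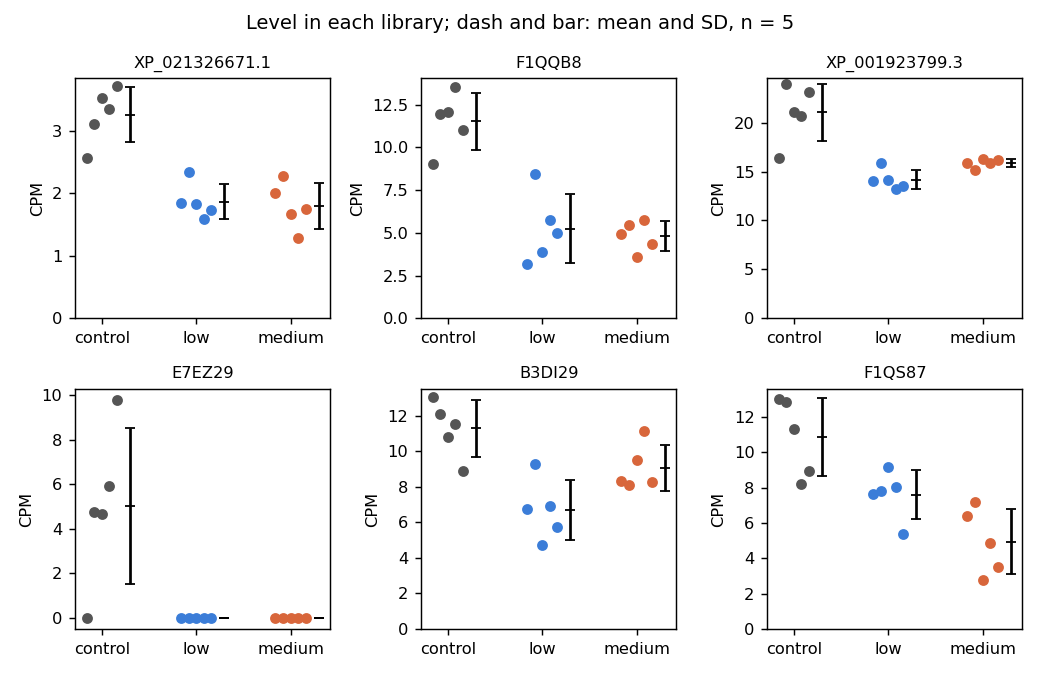
Panels show CPM in every library for 6 members, with 5 dots per group and the mean and SD beside them. XP_021326671.1 and F1QQB8 separate fully from the controls at both doses, E7EZ29 is at 0 in all but 4 control libraries at this scale, and B3DI29 and F1QS87 differ in their order between the doses.

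The comparison of medium with low HBCD did not itself choose the members and asks whether the larger body burden went with a larger difference. It uses libraries that the selection used, and the demand to be lower at both doses favours similar levels. Of 66 members tested, 0 passed an edgeR adjusted p of 0.05, where 20 of 13283 targets did (0.151%). DESeq2 also called 0 members, where it called 147 of 14095 targets (1.04%), and so did limma-voom, where it called 18 (0.136%). The smallest edgeR adjusted p among the members was 0.412. At an unadjusted p under 0.05 there were 7 members, 5 higher and 2 lower in medium HBCD. That is 10.6% of the 66, beside 8.81% of all targets tested, a share near the background.

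The edgeR log2 fold change of medium against low had a median of 0.04 over the members and of -0.01 over all targets tested. The 95% interval lay within 0.5 on either side of 0 for 42 of the 66 members and within 1 for 58. For the other 8 the interval took in a 2-fold difference in at least 1 direction. The order of the doses turned with the scaling. By library total 41 of 67 members were lower in medium than in low HBCD, with a median difference of -0.02. That is 61.2% of members, beside 65.7% of eligible targets, a share near the background. With TMM factors 27 members were lower, with a median of 0.03. The share of eligible targets lower with TMM factors is not given here, so the turn is not read as a trait of the members. The corresponding medians over eligible targets were -0.067 and -0.009.

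**Figure D5:**
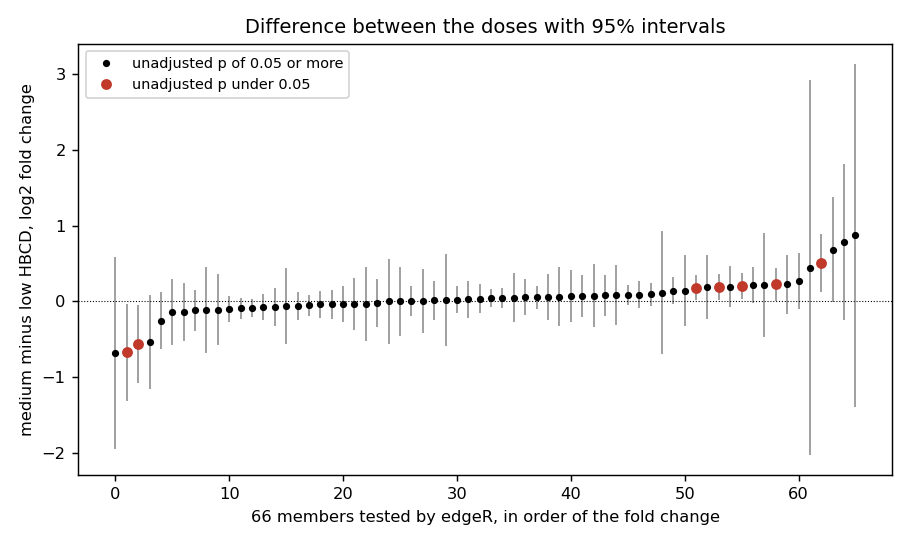
Points are the edgeR log2 fold change of medium against low HBCD for 66 members, sorted, and the bars are 95% intervals. Red marks the 7 members with an unadjusted p under 0.05; most points lie close to 0, and the widest bars, at the right end, reach beyond 2 log2 units.

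B3DI29 had the smallest unadjusted p among members higher in medium than in low HBCD. It held 13.1, 12.1, 10.8, 11.6 and 8.87 CPM in control replicates A to E, 6.75, 9.27, 4.72, 6.92 and 5.73 CPM in low HBCD and 8.33, 8.12, 9.51, 11.2 and 8.27 CPM in medium HBCD. The medium libraries lay between the other groups and overlapped both. Its log2 fold change of medium against low was 0.50 (SE 0.18, 95% interval 0.12 to 0.88, edgeR adjusted p = 0.412).

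F1QS87 showed the opposite order, the smallest such p among members lower in medium HBCD. Its controls held 13.003, 12.8, 11.3, 8.17 and 8.95 CPM, low HBCD 7.65, 7.81, 9.14, 8.04 and 5.36 CPM, and medium HBCD 6.40, 7.15, 2.77, 4.88 and 3.49 CPM. Medium HBCD lay below every control and low HBCD overlapped both groups. Medium against low came to -0.57 (SE 0.24, 95% interval -1.08 to -0.05, edgeR adjusted p = 0.516). Neither F1QS87 nor B3DI29 was thus separated between the doses after adjustment.

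In the edgeR quasi-likelihood fit over 13283 targets all 66 members tested were below the control at both doses, and 50 had an unadjusted p under 0.05 in both comparisons, as 112 of all targets did in the lower direction (0.843%). After adjustment 1 member was called in low HBCD, where 5 targets were called lower (0.0376%). In medium HBCD no member was called, where 1 target was (0.00753%). There the smallest edgeR adjusted p of a member was 0.0624, and 51 members had an unadjusted p under 0.05 (3.35% of all targets were lower at that p). DESeq2 called 21 members, where it called 60 of 14095 targets lower (0.426%), and limma-voom called 2, where it called 4 of 13283 lower (0.0301%). These comparisons are the ones that chose the members.

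The 1 member called was XP_001923799.3, named here after its values were seen. Its controls held 16.4, 23.96, 21.1, 20.7 and 23.1 CPM in replicates A to E. Low HBCD held 14.05, 15.8, 14.2, 13.2 and 13.6 CPM, all below the controls, and medium HBCD 15.9, 15.2, 16.2, 15.8 and 16.1 CPM, also all below, with control replicate A closest. The log2 fold change was -0.62 (SE 0.10, edgeR adjusted p = 0.0464) in low HBCD and -0.40 (SE 0.10, edgeR adjusted p = 0.273) in medium HBCD. The call in low HBCD was lost without any 1 of control replicates B to E, low replicates A, C, D or E, or medium replicates A to E. Over 23 alternatives its log2 fold change stayed between -0.70 and -0.57, with adjusted p between 3.06e-06 and 0.384.

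Of the 67 members, 22 were in the authors' deposited table of low HBCD, all as lower, where 0.419% of eligible targets were lower. For medium HBCD, 21 members were in the authors' deposited table, all lower, beside 0.403% of eligible targets. Both of the authors' deposited tables listed 10 members and at least 1 table listed 33, which leaves 34 members in neither. The authors' deposited tables had 13 targets lower in both; the 3 that are not members comprise 2 on more than 2 rows and 1 that missed the selecting test in at least 1 dose. The deposited comparisons rest on the same libraries, so they are not an independent check.

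By kind of identifier, which the selection did not use, the members were close to the eligible targets. UniProt identifiers made up 56.7% of members and 58.5% of eligible targets, RefSeq XP identifiers 29.9% and 26.4%, and RefSeq NP identifiers 13.4% and 15.2%. Within the limit of 2 rows that the rule set, 3 members stood on 2 rows, 4.48% against 4.86% of eligible targets. The counts were whole in all 15 libraries for 25 members, 37.3% against 33.5% of eligible targets, as they are when a target shares no reads with another; whole means within 1e-06. They were not whole in any library for another 25 members, 37.3% against 45.6%.

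Within groups the members showed little common variation. After removal of the group means, the correlation between 2 members over the 15 libraries had a median of 0.02 over 2211 pairs. Pairs of eligible targets had a median of 0.005, so the median does not set the members apart. Between members the correlation was above 0.7 in 22 pairs and below -0.7 in 19, or 0.995% and 0.859% of the pairs. For pairs of eligible targets these shares were 3.40% and 2.93%. The first component held 19.4% of the members' within-group variance and 30.0% of that of eligible targets. These are descriptions over 15 libraries that share depth and composition. The members also had a lower within-group SD than the eligible targets, which the selection favours, and its part in these shares was not tested.

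Membership was sensitive to single libraries. The larger of a target's p-values in the selecting tests was 0.0499 for the member nearest to the threshold (differences of -0.09 and -0.23 in low and medium HBCD, 45.0 CPM), and 0.05005 for the nearest target outside (-1.67 and -1.43, 1.81 CPM). Leaving out each library in turn, 18 of the 67 met the rule every time, among them XP_021326671.1, F1QQB8 and XP_001923799.3, and 49 failed at least once. The rule then selected between 47 and 116 targets. The 116 came without control replicate A, of which 48 were members. Without control replicates D and E, 65 targets met the rule, 30 of them members. All 67 members kept a mean below the control at both doses in each of these settings, a direction that their choice makes likely.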

How the data were processed

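Polyadenylated RNA from pools of whole larvae was sequenced from strand-preserving libraries, per the labels' protocols. Trim Galore, kallisto and DESeq2 are named in the submitters' processing notes, without versions, a target reference or a build. The estimated counts, not normalized, are as the authors deposited them (15551 rows, 15 libraries). Per the file headers, 2 further deposited tables hold the authors' comparisons: a mean normalized count (signal), log2 fold change, test statistic (a score) and p-value.

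Estimated counts were summed per identifier. The rule was computed with scipy 1.17.1 on log2(CPM + 1) of the sums. For fits across all 13283 targets that passed filterByExpr, sums were rounded and tested with the edgeR 4.0.16 quasi-likelihood test (TMM, robust, 1 fit of all 15 libraries, Benjamini-Hochberg adjustment over all targets, threshold 0.05). Intervals cover 95% and come from the F statistic. DESeq2 1.42.0 and limma 3.58.1 were alternatives. Both the edgeR fit and the rule were also run on simulated data, with differences larger than that of the middle member. The outcome is not given here and no result rests on it. Totals of 12.6 to 58.4 mega-counts gave edgeR intervals between doses with a median distance of 0.31 from estimate to bound over the members.

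The members and the lists were chosen with earlier results of these data known. Identifiers named in the text are the member of smallest p and of largest difference in each comparison with the control, and that of smallest edgeR p in each direction between doses; others are marked where they appear. The rule for genes with a symbol named none, since 0 identifiers matched.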

Additional observations from a re-analysis of the deposited data

Results flagged for a closer look

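Of 42 sets of 5 libraries searched (values of named members and library summaries, by group), 4 held a library far from the other 4 of its group. Chance gives such a gap in about 1 of 20 sets of normally distributed values. That rate need not hold for CPM or for values near 0. F1QL16 had 1546 CPM in low HBCD replicate E, where the other low libraries held 404 to 625 CPM. B3DFT1 had 8.25 CPM in medium HBCD replicate C, against 2.40 to 3.58 CPM in the rest of that group. E7EZ29 had a highest value of 8.71e-08 CPM in low HBCD and of 0.000163 CPM in medium HBCD where the remaining libraries were at or near 0, which are differences far below 1 count. Over all 67 members and 3 groups, 17 of 201 sets held such a library.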

How the results depend on the processing

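Counts of targets meeting the rule and of members called were recomputed under each setting; 1 setting, leaving out control replicates D and E with TMM factors, was added after the data were seen. Against 67 targets, 104 met the rule with edgeR p-values (50 of them members) and 123 with DESeq2 p-values (55 members). Other settings that did not leave out a single library, TMM factors (94, with 62 members) and thinning to the smallest total (66, with 55) included, stayed within 1.5 times. Leaving out 1 library gave 47 to 116, and only the 116 without control replicate A passed that limit. Whether a replicate letter pairs libraries across groups is not stated. The 15 same-letter correlations of within-group deviations ran from -0.347 to 0.321, with 7 over 0.1, and cannot decide it. With the letter as a replicate block 51 targets met the rule, 37 of them members.

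Members called in low HBCD against control numbered 22 with DESeq2 (0.433% of all targets were called lower) and 7 with limma-voom (0.12%). They numbered 0 with the edgeR replicate block, where 58 members of 573 targets were lower at an unadjusted p under 0.05. With the 10 libraries compared they also numbered 0 (62 of 582). They were 0 as well when thinned (57 of 544) and without control replicates D and E (49 of 379). In each of these settings 0 of all targets were called lower after adjustment, so 0 members is not read as a trait of the members. Without 1 library the members called in low HBCD numbered 0 to 2, where 0% to 0.0969% of all targets were called lower. In medium HBCD the members called were 21 with DESeq2 (0.426%), 2 with limma-voom (0.0301%) and 2 with the 10 libraries compared (0.0383%). Without 1 library they were 0 to 1, where 0% to 0.0298% of all targets were called lower. Between doses 0 members were called in all 23 alternatives. Of all targets, 0.0301% (replicate block) to 1.04% (DESeq2) were called there, so 0 members is near the background.

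The median member difference in low HBCD was -0.30 with a pseudocount of 5, -0.40 with TMM factors, -0.40 with DESeq2 size factors and -0.42 with TMM without control replicates D and E. In medium HBCD it was -0.43 with a pseudocount of 0.1 and -0.31 with 5. Between doses it was 0.0298 with TMM factors, 0.0296 with DESeq2 size factors and 0.0298 with TMM without control replicates D and E. The pseudocount acts by construction; otherwise the cause was not tested. Members in which a library held few counts rest on little depth.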
